A study of Homo sapiens with 5 samples.

Results

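HOX genes other than HOXB13 were described across 5 RNA-seq libraries of C4-2B, a castration-resistant human prostate cancer line derived from LNCaP. The members are the protein-coding genes named HOXA, HOXB, HOXC or HOXD with a number from 1 to 13, without HOXB13, and 38 of 58812 gene IDs in the count table met that rule. The HOXA cluster on chromosome 7 gave 11 members, and the HOXB cluster on chromosome 17, the HOXC cluster on chromosome 12 and the HOXD cluster on chromosome 2 gave 9 each. The clones carry HOXB13 with lysine 13 replaced by alanine (K13A): 2 libraries came from the clone C4K13A and 1 from the clone C5K13A. The other 2 libraries came from parental C4-2B, and every culture was grown in C4-2B medium. The question of the series was which transcripts are regulated through acetylation of HOXB13 at this lysine. Each mutant line is 1 clone, and it is not stated whether replicate libraries are separate cultures; the p-values therefore cover the variation among 5 libraries, and part or all of it may be technical.

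HOX genes encode homeodomain transcription factors that give cells their position along the body axis, and they lie in clusters in the order in which they act from head to tail. Genes with the same number in different clusters are paralogs, and the high-numbered (posterior) genes pattern the pelvic organs, among them the prostate. Adult prostate cells keep a posterior HOX code in which HOXB13 stands out, and the proteins bind DNA together with cofactors of the TALE homeodomain class.

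Total counts ran from 43190276 to 57282373 per library. All 10 luminal prostate markers had counts in all libraries, with summed levels of 5223 to 6198 CPM (counts scaled to a common library total with TMM factors) in the K13A libraries and 5107 to 6935 CPM in the parental ones. Markers of other cell types were low. The 3 basal markers summed to 0.0399 to 0.212 CPM in K13A and 0.202 to 0.512 CPM in parental libraries, and the 5 leukocyte markers, of which 2 were at 0 in all libraries, to 0.0943 to 0.304 CPM in K13A and 0.202 to 0.275 CPM in parental libraries. The 6 fibroblast markers, 1 of them at 0 in all libraries, summed to 6.82 to 9.02 CPM in K13A and 9.03 to 9.82 CPM in parental libraries, and the 5 endothelial markers to 2.66 to 4.34 CPM in K13A and 5.61 to 5.73 CPM in parental libraries, so both sums were lower in every K13A library. The fibroblast sums of the groups nearly met. In at least 1 library a single marker made up most of each sum, at 6.69 CPM of the fibroblast and 5.60 CPM of the endothelial markers. Counts in all libraries were found for 3 of 6 fibroblast and 2 of 5 endothelial markers. The part of these markers in the values below was not tested. Residual mitochondrial ribosomal RNA differed within both groups, at 65.4 and 353 CPM in the C4K13A libraries, 658 CPM in C5K13A, and 29.03 and 1723 CPM in the parental ones. HOXB13 itself had 344 and 348 CPM in C4K13A, 352 CPM in C5K13A, and 338 and 448 CPM in parental libraries; gene counts do not show the point mutation.

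Sequences upstream of HOXA10, HOXA11 and HOXA13, whose values stand out below, are shown first. The sequence listed under HOXC4 and HOXC5 is added because it holds both motifs searched, not for the values of these genes. HOXB13 and its posterior paralogs bind short A- and T-rich sites of the kind CAATAAA and TCGTAAA. RefSeq (GRCh38.p14) gave 27 promoter windows for 20 of the 38 members. No entry was found for HOXA5, HOXB2, HOXB3, HOXB4, HOXB5, HOXB6, HOXB7, HOXB8, HOXB9, HOXC6, HOXC8, HOXC9, HOXC10, HOXC11, HOXC12, HOXC13 and HOXD9. In the 250 bases before each start, both strands were searched for CAATAAA and TCGTAAA, which overlap no other motif searched. CAATAAA was in 4 of the 27 HOX windows and in 3.66% of 35116 windows of all genes, and TCGTAAA was in 2 of 27 and in 0.444%. The 4 windows are 2 of HOXA3 and 1 that RefSeq lists under both HOXC4 and HOXC5, counted for both genes, and this window also gave both TCGTAAA matches. The windows of HOXA10 (chr7:27174321-27174570, minus strand), HOXA11 (chr7:27185233-27185482, minus strand) and HOXA13 (chr7:27200092-27200341, minus strand) held neither motif, and they differed in CG pairs, with 24, 11 and 40 against a median of 11 over all windows. HOXA10 has a further window (chr7:27179862-27180111, minus strand), nearer the 5′ end of the counted gene, with 19 CG pairs and neither motif, which is not printed. The window listed under HOXC4 and HOXC5 (chr12:54016638-54016887, plus strand) lies just before the start of the counted HOXC4 gene at 54016931, while the counted HOXC5 gene starts farther along, at 54032853. It held both motifs on the reverse strand, written in capitals, 100 and 31 bases before the start. A match describes letters only, and the absence of one says nothing about the factor. The windows printed here run 5′ to 3′ on the strand of the gene.
HOXA10: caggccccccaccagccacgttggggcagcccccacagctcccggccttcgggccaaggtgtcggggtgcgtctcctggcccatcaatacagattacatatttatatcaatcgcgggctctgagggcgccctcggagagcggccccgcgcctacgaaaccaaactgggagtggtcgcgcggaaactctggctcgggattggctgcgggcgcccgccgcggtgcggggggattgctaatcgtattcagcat
HOXA11: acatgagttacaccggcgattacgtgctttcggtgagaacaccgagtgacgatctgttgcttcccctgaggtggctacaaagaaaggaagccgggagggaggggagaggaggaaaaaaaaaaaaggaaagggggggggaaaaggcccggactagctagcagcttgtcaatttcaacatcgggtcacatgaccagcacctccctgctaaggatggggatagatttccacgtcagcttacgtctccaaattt
HOXA13: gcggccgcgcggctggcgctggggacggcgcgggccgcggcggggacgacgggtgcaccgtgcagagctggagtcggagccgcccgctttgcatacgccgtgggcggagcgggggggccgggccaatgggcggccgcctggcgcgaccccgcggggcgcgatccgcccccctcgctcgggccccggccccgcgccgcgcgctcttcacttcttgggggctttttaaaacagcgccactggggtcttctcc
HOXC4 and HOXC5: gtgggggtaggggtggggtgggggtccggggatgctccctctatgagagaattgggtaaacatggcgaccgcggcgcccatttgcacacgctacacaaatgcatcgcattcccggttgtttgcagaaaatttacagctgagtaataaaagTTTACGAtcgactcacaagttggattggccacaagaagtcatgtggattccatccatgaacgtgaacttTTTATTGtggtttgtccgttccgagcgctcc

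HOX expression in C4-2B was uneven along and between the clusters. Per length, in RPKM (CPM per kilobase of merged exons), HOXC6 led with a mean of 9.14 over the 5 libraries (6.77 to 11.6), followed by HOXA10 at 8.10 (3.99 to 11.9). HOXB9 at 5.77 (3.25 to 8.19), HOXB7 at 5.70 (5.31 to 6.37), HOXA5 at 5.38 (4.40 to 6.82) and HOXC13 at 5.08 (3.37 to 6.98) came next. HOXC9 at 3.52, HOXC12 at 3.25, HOXA11 at 2.73, HOXA6 at 2.53 and HOXA13 at 2.23 RPKM followed. The ranges of HOXC6 and HOXA10 overlapped, as did those of all 4 genes after them, so their order is not set beyond the spread. HOXC8 at 1.57 and HOXA4 at 0.968 RPKM stood below these, and the other members were lower. The 38 members together reached 57.6 and 72.3 RPKM in C4K13A, 69.9 RPKM in C5K13A, and 48.7 and 56.4 RPKM in parental libraries. HOXB13 alone had 99.2 and 100.3 RPKM in C4K13A, 101.5 RPKM in C5K13A, and 97.5 and 129 RPKM in parental libraries, above the sum of all other HOX genes in every library.

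Paralog groups 1 to 3, the anterior genes, contributed little: their 8 members summed to between 0.694 and 1.78 RPKM in the K13A libraries and to 0.925 and 1.19 RPKM in the parental ones. Groups 4 to 8, with 15 members, summed to 30.1, 31.2 and 28.04 RPKM in the K13A libraries, against 24.6 and 25.9 RPKM in the parental ones. The 15 posterior members of groups 9 to 13 summed to 26.8, 39.7 and 40.1 RPKM in the K13A libraries, against 23.2 and 29.3 RPKM in the parental ones. All 3 K13A sums of groups 4 to 8 were above both parental sums, while those of the anterior and posterior groups overlapped. Group 6 had the highest mean sum in both groups of libraries, at 13.6 ± 1.54 RPKM in K13A and 10.4 ± 0.400 RPKM in parental libraries (SD, n = 3 and 2), and HOXC6 made up most of it. Group 9 was above it in C5K13A, at 12.1 against 11.9 RPKM, and about level in parental library 1, at 10.2 against 10.1 RPKM. Group 10 had 10.1 ± 2.57 RPKM in K13A and 5.45 ± 1.63 RPKM in parental libraries, and group 11 had 3.80 ± 1.44 RPKM in K13A and 1.19 ± 0.397 RPKM in parental libraries, nearly all from HOXA10 and HOXA11.

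**Figure D1:**
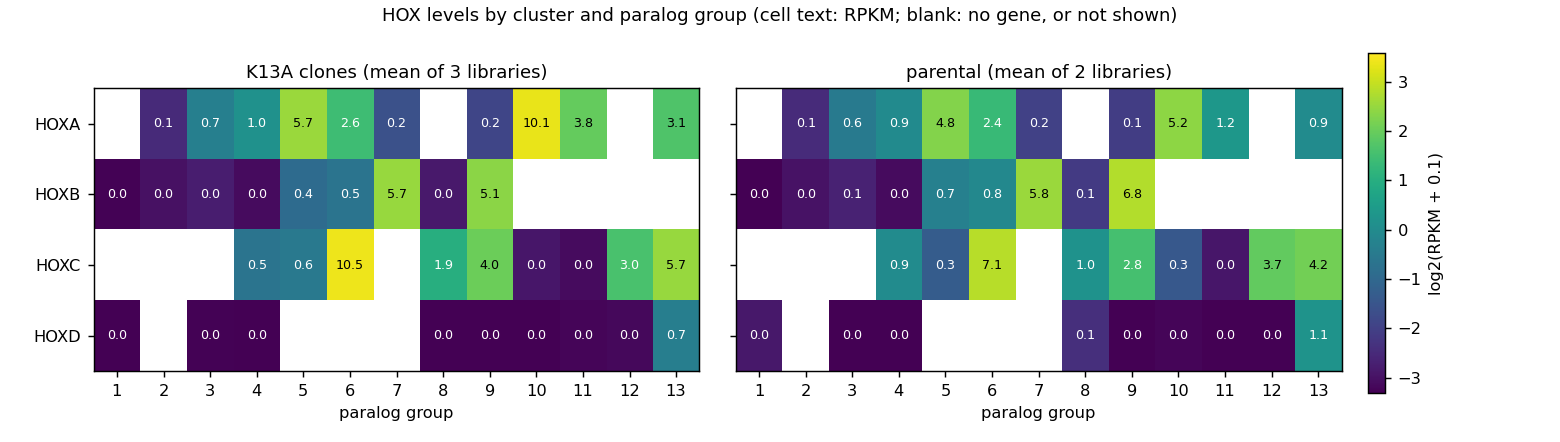
Mean RPKM of HOX genes by cluster (rows) and paralog group (columns) in the 3 K13A libraries (left) and the 2 parental libraries (right); the colour is log2(RPKM + 0.1) and the number in each cell is RPKM. HOXC6 and HOXA10 are the brightest cells in the K13A panel, HOXC6 and HOXB9 in the parental panel, and the HOXD row is dark except for HOXD13.

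The clusters differed in the direction of their summed levels. HOXA summed to 19.2 and 33.4 RPKM in C4K13A, 31.1 RPKM in C5K13A, and 14.3 and 18.9 RPKM in parental libraries (27.9 ± 7.65 in K13A and 16.6 ± 3.21 in parental, SD, n = 3 and 2). HOXC summed to 27.9 and 27.9 RPKM in C4K13A, 22.7 RPKM in C5K13A, and 18.6 and 22.3 RPKM in parental libraries. Both sums were above both parental values in each K13A library, narrowly for HOXA in C4K13A library 1 and for HOXC in C5K13A. HOXB summed to 9.73 and 10.05 RPKM in C4K13A and to 15.7 RPKM in C5K13A, against 14.9 and 13.7 RPKM in parental libraries. The C4K13A libraries thus lay below parental in HOXB and C5K13A above. HOXD summed to 0.837, 0.865 and 0.380 RPKM in K13A and to 0.953 and 1.45 RPKM in parental libraries. All 3 K13A sums were lower, but C4K13A was close to parental library 1, where HOXD8 added 0.167 RPKM from 26 counts. HOXD13, which made up most of the HOXD sum, overlapped between the groups, with C4K13A between the parental libraries. In bulk libraries such as these, fewer expressing cells and less RNA per cell cannot be told apart. As shares of the HOX total without HOXB13, HOXB made up 16.9%, 13.9% and 22.5% in the K13A libraries and 30.5% and 24.4% in the parental ones, and HOXA 33.3%, 46.2% and 44.5% in the K13A libraries against 29.4% and 33.5% in the parental ones. These sums and shares are descriptions over a chosen list and carry no test.

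**Figure D2:**
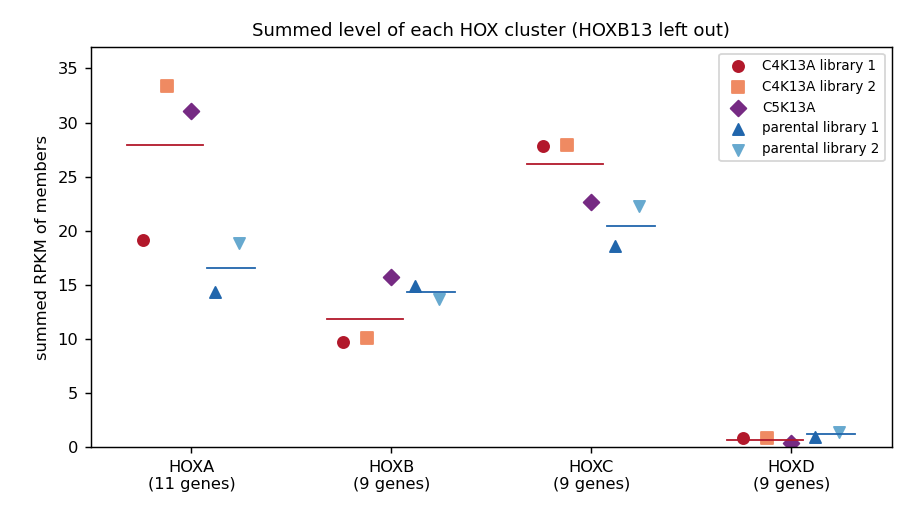
Summed RPKM of the members of each cluster in each library, with horizontal lines for the mean of the 3 K13A (red) and the 2 parental (blue) libraries. The K13A points lie above both parental points for HOXA and HOXC and below both for HOXD, where C4K13A nears parental library 1. For HOXB the 2 C4K13A points are below and C5K13A above.

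Of the 38 members, 25 passed the filter on low counts in the fit of all K13A libraries against parental, and 0 of 25 were called at an adjusted p under 0.05 (edgeR quasi-likelihood test, Benjamini-Hochberg), where 0.203% of all 20649 genes were called. At an unadjusted p under 0.05 there were 5 of 25, against 11.0% of all genes. DESeq2 called 2 (2.69% of all genes), limma-voom 0, and edgeR without the filter 5 (3.12%). The median log2 fold change of the tested members was 0.20, beside -0.0047 over all genes. It was 0.31 in HOXA, with 10 of 11 members positive, -0.42 in HOXB, with 5 of 5 negative, and 0.46 in HOXC, with 5 of 8 positive. HOXD13, the tested HOXD member, was at -0.66. All 3 K13A libraries lay above both parental libraries in 5 of 25 tested members (HOXA10, HOXA11, HOXC5, HOXC6 and HOXC9), where 13.6% of all genes did, and below both in 3 (HOXB5, HOXB6 and HOXC10), where 14.9% did. HOXC10 passed the filter only through the parental libraries, and it is also 1 of the 5 members with an unadjusted p under 0.05.

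**Figure D3:**
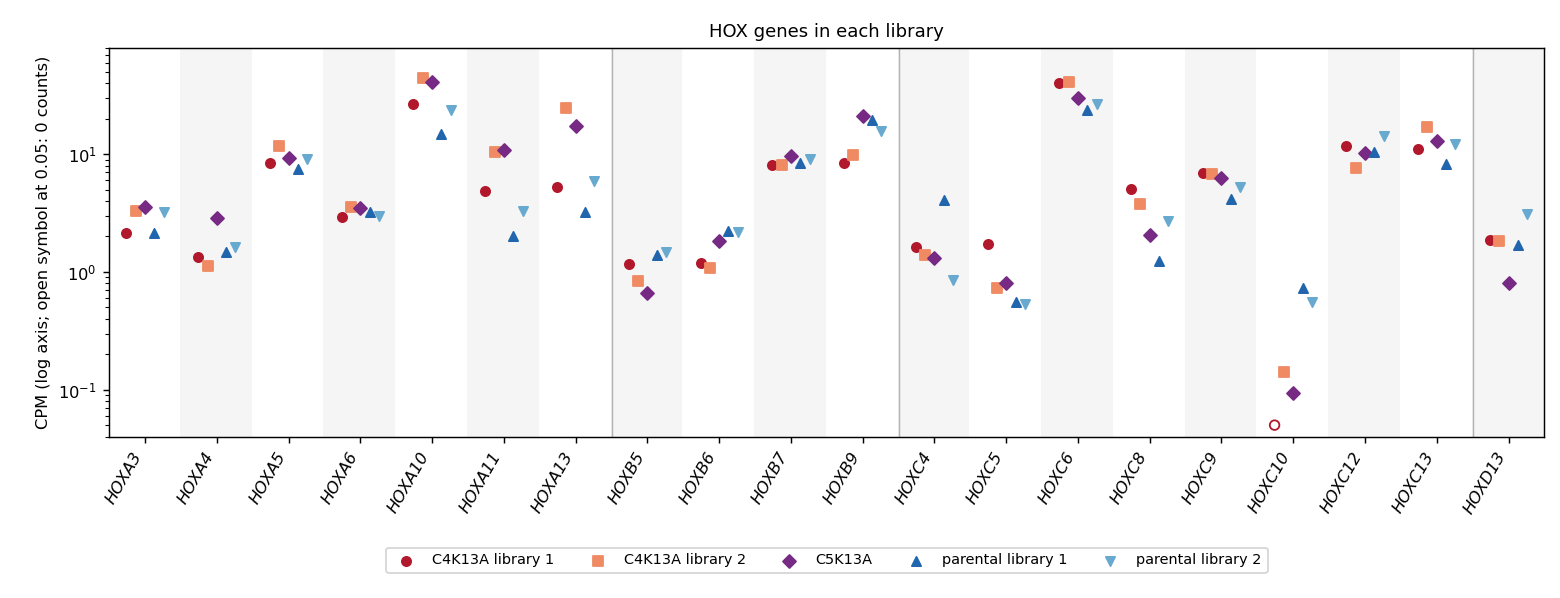
CPM (log axis) of HOX genes with a group mean of 1 CPM or more, and of HOXC10, in each library, ordered by cluster and paralog group; an open symbol marks 0 counts, drawn at 0.05. Red, orange and purple points are K13A libraries and blue points parental ones; they separate for HOXA10, HOXA11, HOXB5, HOXB6, HOXC5, HOXC6, HOXC9 and HOXC10 and overlap for the other genes plotted.

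The posterior end of HOXA held the 2 highest fold changes of the K13A libraries among the tested members, those of HOXA13 and HOXA11. HOXA10 (ENSG00000253293, chromosome 7, 27170591 to 27180261, minus strand; GENCODE v29 on GRCh38), which in mice patterns the uterus and the male accessory glands, had 26.5 and 44.3 CPM in the C4K13A libraries and 40.9 CPM in C5K13A, against 14.8 and 23.6 CPM in parental libraries. Each K13A library was higher than both parental ones, though C4K13A library 1 came close. HOXA10 shares 26.3% of its exon bases with the opposite-strand gene HOXA10-AS and another gene, and the strand setting of the counting is not given. The fold change was 0.96 ± 0.28 on the log2 scale (SE) and was not called (edgeR adjusted p = 0.282). DESeq2 gave an adjusted p of 0.0498 for HOXA10, and over 15 alternatives the adjusted p ran from 4.73e-04 to 0.919.

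HOXA11 (ENSG00000005073, chromosome 7, 27181510 to 27185223), which acts in limb, kidney and reproductive tract development, had 4.89 and 10.4 CPM in the C4K13A libraries and 10.8 CPM in C5K13A, against 2.02 and 3.31 CPM in parental libraries. The groups did not overlap, and the K13A mean was 8.72 ± 3.33 CPM beside 2.66 ± 0.907 CPM in parental libraries (SD, n = 3 and 2). Its log2 fold change of 1.71 ± 0.41 had the lowest adjusted p of any member (edgeR, 0.211). DESeq2 gave 0.00275, and the range over 15 alternatives was 1.44e-05 to 0.890. The opposite-strand gene HOXA11-AS shares 31.1% of the HOXA11 exon bases, and the strand setting of the counting is not given, so reads of the pair cannot be told apart. HOXA11-AS, counted on its own ID, had 1.16 and 4.39 CPM in the C4K13A libraries and 4.45 CPM in C5K13A, against 0.775 and 1.22 CPM in parental libraries (log2 fold change 1.74 ± 0.60, edgeR adjusted p = 0.348).

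HOXA13 (ENSG00000106031, chromosome 7, 27193503 to 27200106), needed for the hindgut, the digits and the urogenital sinus, had 5.31 and 24.9 CPM in the C4K13A libraries and 17.3 CPM in C5K13A, against 3.20 and 5.96 CPM in parental libraries. C4K13A library 1 lay between the parental libraries, and the other K13A libraries were well above them. The fold change was 1.79 ± 0.60 (edgeR adjusted p = 0.334). HOXA7 and HOXA9, which lie on the other side of HOXA10, had at most 33 counts in any library. Beyond HOXA13, the noncoding gene HOTTIP had 0.0599 and 0.561 CPM in the C4K13A libraries and 0.660 CPM in C5K13A, against 0.185 and 0.236 CPM in parental libraries. The homeobox gene EVX1 at the cluster's edge had 0.838 and 1.45 CPM in the C4K13A libraries and 1.81 CPM in C5K13A, against 0.489 and 0.512 CPM in parental ones (1.44 ± 0.46, edgeR adjusted p = 0.316). HOTTIP and EVX1 were singled out after their values were seen, for their place next to HOXA13.

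Within both replicate pairs, HOXA10, HOXA11 and HOXA13 were lower in the library with less residual ribosomal RNA. C4K13A library 1 was below C4K13A library 2, and parental library 1 below parental library 2. C5K13A had more of this RNA than C4K13A library 2 (658 against 353 CPM). Its HOXA10 (40.9 against 44.3 CPM) and HOXA13 (17.3 against 24.9 CPM) were nevertheless lower than there, and its HOXA11 higher (10.8 against 10.4 CPM). Among libraries under 200 CPM of mitochondrial ribosomal RNA, the difference of C4K13A library 1 from parental library 1, in log2(CPM + 0.5), was 0.82 for HOXA10, 1.10 for HOXA11 and 0.65 for HOXA13. Among those above it, the mean of C4K13A library 2 and C5K13A minus parental library 2 was 0.84, 1.55 and 1.72. For HOXA10 and HOXA11, whose groups did not overlap, a positive sign on each side was fixed beforehand. With the split as a covariate the edgeR adjusted p was 0.0910 for HOXA10, 0.0723 for HOXA11 and 0.192 for HOXA13. The log2 fold changes were smaller in that fit, at 0.85, 1.51 and 1.35, against 0.96, 1.71 and 1.79 without the covariate.

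**Figure D4:**
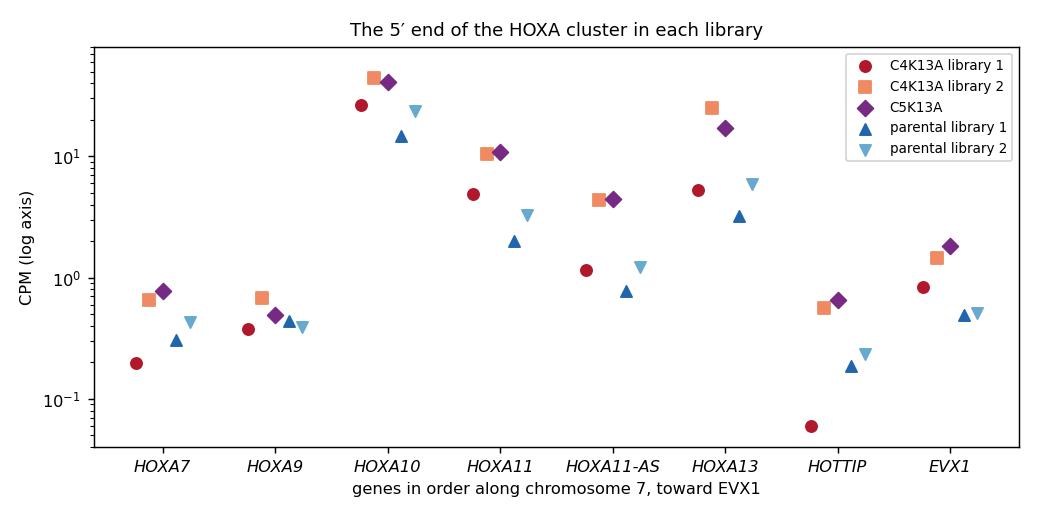
CPM (log axis) in each library for genes in order along the posterior end of the HOXA cluster, from HOXA7 to EVX1. From HOXA10 to EVX1, C4K13A library 2 and C5K13A lie above both parental libraries for each gene, while C4K13A library 1 lies above both for HOXA10, HOXA11 and EVX1 but not for HOXA11-AS, HOXA13 and HOTTIP.

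The central and anterior HOXA genes showed smaller differences. HOXA5, known for its part in lung development, had 8.48 and 11.6 CPM in the C4K13A libraries and 9.26 CPM in C5K13A, against 7.52 and 9.03 CPM in parental libraries (0.24 ± 0.23). HOXA6 had 2.93, 3.58 and 3.51 CPM in the K13A libraries, against 3.22 and 2.99 CPM in parental ones (0.10 ± 0.27). Neither separated the groups. HOXA3, a gene of thymus and parathyroid development, had 2.14, 3.30 and 3.56 CPM in the K13A libraries, against 2.16 and 3.23 CPM in parental ones (0.15 ± 0.35). HOXA4 had 1.34 and 1.12 CPM in C4K13A, 2.90 CPM in C5K13A, and 1.48 and 1.61 CPM in parental libraries, so that C5K13A was above and C4K13A below parental. HOXA3, HOXA4 and HOXA6 share 17.9%, 47.3% and 40.1% of their exon bases with other genes. HOXA2, which acts in the hindbrain, had at most 15 counts in any library.

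In HOXB, all 5 tested members had negative fold changes of the K13A libraries, and none was called. HOXB9 (ENSG00000170689, chromosome 17, 48621159 to 48626356, minus strand), a posterior member of the cluster that in mice acts in rib and mammary gland development, had 8.38 and 9.88 CPM in the C4K13A libraries and 21.1 CPM in C5K13A, against 19.4 and 15.6 CPM in parental libraries. C4K13A lay below both parental libraries and C5K13A above both. HOXB7 had 8.14, 8.11 and 9.73 CPM in the K13A libraries, against 8.46 and 9.13 CPM in parental ones (-0.02 ± 0.21). HOXB6 had 1.20, 1.08 and 1.84 CPM in the K13A libraries, against 2.21 and 2.18 CPM in parental ones (-0.68 ± 0.35, edgeR adjusted p = 0.520). HOXB5 had 1.16, 0.841 and 0.660 CPM in the K13A libraries, against 1.399 and 1.48 CPM in parental ones (-0.69 ± 0.39, 0.553). Both HOXB5 and HOXB6 were lower in all 3 K13A libraries than in both parental ones. HOXB6 shares 33% of its exon bases with other genes. The other 5 HOXB members had at most 37 counts in any library.

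In HOXC, the well-expressed genes differed in direction. HOXC6 (ENSG00000197757, chromosome 12, 53990624 to 54030823, plus strand), whose transcript is a known marker of prostate cancer, had 40.2 and 41.2 CPM in the C4K13A libraries and 29.9 CPM in C5K13A, against 24.0 and 26.6 CPM in parental libraries. All 3 K13A libraries were higher, C5K13A by little, and the fold change of 0.55 ± 0.19 was not called (edgeR adjusted p = 0.343). HOXC6 shares 15.7% of its exon bases with neighbouring HOXC genes and a noncoding RNA. HOXC9 had 6.90, 6.82 and 6.32 CPM in the K13A libraries, against 4.20 and 5.31 CPM in parental ones (0.49 ± 0.23, edgeR adjusted p = 0.490). HOXC5 had 1.72, 0.724 and 0.801 CPM in the K13A libraries, against 0.556 and 0.531 CPM in parental ones (0.99 ± 0.51, 0.516). It shares 59.9% of its exon bases with AC012531.2 and with another HOXC5 gene ID, which is left out here. HOXC9 and HOXC5 separated the groups without passing the test.

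HOXC4, HOXC8, HOXC12 and HOXC13 overlapped between the groups. HOXC4 had 1.64, 1.402 and 1.32 CPM in the K13A libraries, against 4.10 and 0.846 CPM in parental ones, so that the parental libraries lay on both sides. HOXC8, a thoracic patterning gene, had 5.03 and 3.76 CPM in C4K13A, 2.05 CPM in C5K13A, and 1.25 and 2.70 CPM in parental libraries (0.88 ± 0.48). The C4K13A libraries were above both parental ones, and C5K13A lay between them. HOXC13, which drives hair and nail keratin genes, had 11.2, 16.9 and 13.0 CPM in the K13A libraries, against 8.17 and 12.3 CPM in parental ones (0.42 ± 0.26). HOXC12 had 11.8, 7.64 and 10.2 CPM in the K13A libraries, against 10.4 and 14.2 CPM in parental ones (-0.31 ± 0.25). HOXC10 (chromosome 12, 53985065 to 53990279), a gene of hindlimb motor neurons and the urogenital tract, fell outside the rule for named genes and was singled out after its values were seen. It had 0, 6 and 4 counts in the K13A libraries, against 43 and 28 counts in parental ones. It passed the filter on low counts only through the parental libraries, where it is high, so a fold change far below 0 (fitted at -3.03 ± 0.93) was set by the filter and is given as a description.

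HOXD was nearly silent in all libraries. HOXD13, the digit and urogenital paralog of HOXA13 and HOXB13, had 1.88 and 1.85 CPM in the C4K13A libraries and 0.801 CPM in C5K13A, against 1.69 and 3.09 CPM in parental libraries (-0.66 ± 0.46, edgeR adjusted p = 0.643). C5K13A was the lowest library and C4K13A lay between the parental ones. HOXD8 had 0 counts in all 3 K13A libraries, against 26 and 2 counts in parental ones, at least 11.5-fold lower in K13A by a floor of 3 counts over the group. This bound rests on parental library 1, since the 2 counts of parental library 2 alone are under the floor and give none. HOXD1 had 0 counts in K13A and 4 in each parental library, at least 3.28-fold lower by the same floor. HOXD8 and HOXD1 were also named after their values were seen. HOXD4 and HOXD9 had 0 counts in all 5 libraries, and HOXD3, HOXD10, HOXD11 and HOXD12 had 1 or 2 counts in 1 library each. In all, 8 of the 38 members had 10 or fewer counts over the 5 libraries.

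The clones were then set against parental separately, in 1 fit of 3 groups that tested 27 members. For C4K13A 0 of 27 were called, where 0.699% of 22743 genes were, and 9 had an unadjusted p under 0.05 (12.2% of all genes), among them HOXC10 and HOXD8, which passed the filter only through parental libraries. DESeq2 called 2 of the C4K13A members, HOXA11 and HOXB9 (3.28% of all genes), limma-voom 0, and edgeR without the filter 5 (3.60%). For C5K13A 0 of 27 were called, where 0.0484% of all genes were, and 4 had an unadjusted p under 0.05 (6.45%). DESeq2 called HOXA11 for C5K13A (1.01% of all genes), limma-voom 0 members, and edgeR without the filter 3 (1.54%). The comparisons share the parental libraries and are not independent. The fit takes the spread of C5K13A, which has 1 library, from the other groups.

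HOXA11 had a log2 fold change of 1.52 ± 0.42 in C4K13A (edgeR adjusted p = 0.182) and 2.03 ± 0.48 in C5K13A (0.378). HOXA13 had 1.71 ± 0.63 in C4K13A (0.322) and 1.92 ± 0.72 in C5K13A (0.710), and HOXA10 had 0.88 ± 0.30 in C4K13A (0.293) and 1.10 ± 0.36 in C5K13A (0.644). These values lean on C4K13A library 2: without it the C4K13A fold changes were 0.88 for HOXA11, 0.22 for HOXA13 and 0.47 for HOXA10. Over all fits with 1 library left out they ran from 0.88 to 1.98 for HOXA11, 0.22 to 2.44 for HOXA13 and 0.47 to 1.26 for HOXA10. The HOXA fold changes were positive in 9 of 11 members in C4K13A (median 0.28) and in 11 of 11 in C5K13A (median 0.91). In HOXC6, C4K13A was at 0.68 ± 0.18 (edgeR adjusted p = 0.162) and C5K13A at 0.25, and in HOXC8 C4K13A was at 1.16 ± 0.43 (0.326; 0.70 to 1.82 with 1 library left out) and C5K13A at 0.06. HOXB8 passed the filter only through parental library 1, with 24 counts there against 6, 2 and 3 in the K13A libraries, so its negative sign was set by the filter. The 5 other tested HOXB members were all negative in C4K13A (median -0.56), and 2 of the 5 were in C5K13A (median 0.06). HOXB9 was at -0.94 ± 0.22 in C4K13A, the lowest edgeR adjusted p of the members there (0.125), and at 0.28 ± 0.26 in C5K13A (0.880).

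**Figure D5:**
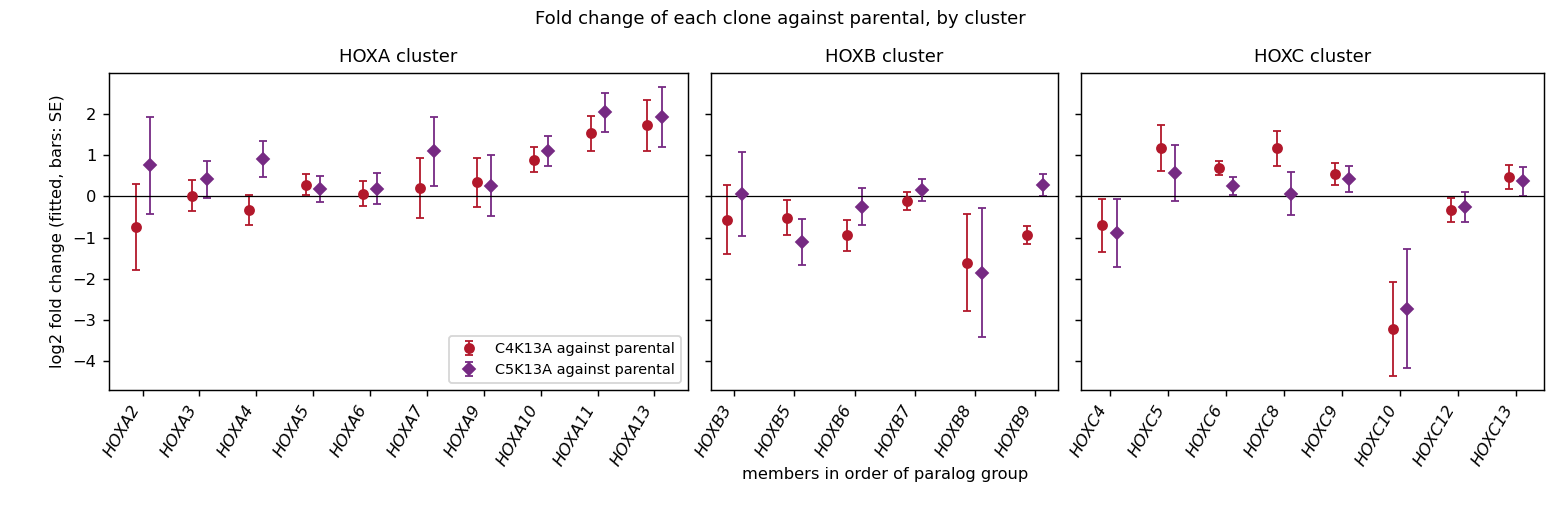
Fitted log2 fold changes of C4K13A (red circles) and C5K13A (purple diamonds) against parental for tested members of HOXA, HOXB and HOXC in order of paralog group, with bars for 1 SE. The values of both clones lie above 0 from HOXA10 to HOXA13, and for HOXB9 C4K13A lies at -0.94 and C5K13A at 0.28.

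The difference between the clones was tested directly. For C5K13A against C4K13A 0 of 27 members were called by edgeR, where 0.0660% of 22743 genes were, and 2 had an unadjusted p under 0.05, HOXB9 and HOXA4 (6.42% of all genes). DESeq2 called 1 member in this comparison, HOXB9 (0.787% of all genes), limma-voom 0, and edgeR without the filter 1 (1.13%). HOXB9 was higher in C5K13A by 1.22 ± 0.26 on the log2 scale (edgeR adjusted p = 0.276, DESeq2 0.0328), and HOXA4 by 1.24 ± 0.43 (edgeR 0.695). HOXA10, HOXA11 and HOXA13 differed between the clones by 0.22, 0.51 and 0.21, and HOXC8 by -1.09. With 1 library left out these ran from -0.10 to 0.63, from 0.065 to 1.15, from -0.52 to 1.70 and from -1.29 to -0.86, so the sign for HOXA10 and HOXA13 depends on 1 library. With 1 C5K13A library these differences have no replicate of that clone behind them.

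PRAC1, a prostate gene between HOXB9 and HOXB13 on chromosome 17, was called by edgeR for C4K13A against parental and for C5K13A against C4K13A. It had 0.439 and 0.140 CPM in C4K13A, 6.69 CPM in C5K13A, and 13.4 and 8.97 CPM in parental libraries. The log2 fold change was -5.23 ± 0.51 in C4K13A (edgeR adjusted p = 0.00856) and 4.49 ± 0.53 for C5K13A against C4K13A (0.0461). DESeq2 called PRAC1 in both comparisons and limma-voom in the first. For C5K13A against parental it was at -0.73 ± 0.50 and was not called (edgeR adjusted p = 0.854). Of the 22 genes flanking the clusters, 20 were tested, and PRAC1 was the 1 that edgeR called in either comparison (0.699% and 0.0660% of all genes). For all K13A libraries 0 of the 20 were called by edgeR (0.203% of all genes), and the median was 0.12. At an unadjusted p under 0.05 there were 3, against 11.0% of all genes. DESeq2 called 1 (SMUG1), against 2.69% of all genes, and limma-voom 0.

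Noncoding genes within the clusters were listed too, and 10 of 18 were tested for all K13A libraries, with a median of -0.05. By edgeR, DESeq2 or limma-voom 0 were called (0.203% of all genes by edgeR and 2.69% by DESeq2). At an unadjusted p under 0.05 there were 2, against 11.0% of all genes. HAGLR, antisense to HOXD1 and HOXD3, had 0.838, 0.444 and 0.165 CPM in the K13A libraries, against 2.12 and 1.26 CPM in parental ones (-1.79 ± 0.61, edgeR adjusted p = 0.342). Its K13A libraries were all below the parental ones, as were the counts of HOXD1 and HOXD8, which were named after their values were seen. HOXD1 shares 58.1% of its exon bases with HAGLR and other genes and had 4 counts in each parental library. With the strand setting not given, HOXD1 is not a separate observation from HAGLR. HOTAIR, a noncoding RNA from the HOXC cluster, had 0 counts in all libraries.

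The TALE cofactors that HOX proteins bind DNA with gave 10 tested of 11, with a median of -0.06 for all K13A libraries. By edgeR or limma-voom 0 were called (0.203% of all genes by edgeR), and by DESeq2 1 (2.69%). At an unadjusted p under 0.05 there were 2, against 11.0% of all genes. PKNOX2 had 0.0200, 0.280 and 0.0943 CPM in the K13A libraries, against 0.371 and 1.42 CPM in parental ones (-2.76 ± 0.93, edgeR adjusted p = 0.335). Its counts were 1, 12 and 4 in the K13A libraries, against 22 and 72 in parental ones. PKNOX2 passed the filter on low counts only through the parental libraries, so its negative fold change is given as a description.

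Regulators of the clusters were described from lists of the same kind, for all K13A libraries against parental. Over all genes edgeR called 0.203% and DESeq2 2.69%, and 11.0% had an edgeR unadjusted p under 0.05. Of 22 Polycomb genes, which keep HOX clusters silent, all were tested and 0 were called by edgeR, DESeq2 or limma-voom, with 7 at an unadjusted p under 0.05 and a median of -0.04. EED, a core subunit, had 18.2, 22.5 and 19.0 CPM in the K13A libraries, against 10.4 and 14.6 CPM in parental ones (0.67 ± 0.21, edgeR adjusted p = 0.311). All 16 genes of a list built around the trithorax and MLL complexes and H3K27 demethylases, which keep HOX genes active, were tested. Their median was -0.03, and the list also held DOT1L, NSD1 and NSD2, which are of neither kind. At an unadjusted p under 0.05 there were 2. Called lower was 1, the Y-linked demethylase gene UTY (-3.92 ± 0.49, edgeR adjusted p = 0.0388). UTY had 4, 8 and 8 counts in the K13A libraries, against 164 and 94 counts in parental ones. It passed the filter on low counts only through the parental libraries, so its negative sign was set by the filter. DESeq2 also called UTY, and limma-voom called 0 genes of this list. A list of 18 genes covered retinoic acid signalling, an input that switches on HOX clusters in embryos. It also held the homeobox genes CDX1, CDX2 and CDX4, of which CDX2 was tested. Of the 18 genes, 11 were tested and 0 called by these tools, with 3 at an unadjusted p under 0.05 and a median of -0.08. The synthesis enzyme gene ALDH1A3 was at -1.74 ± 0.54 (edgeR adjusted p = 0.306) and the receptor gene RARB at 0.79 ± 0.27 (0.334). ALDH1A3 had 22.89, 13.65 and 8.60 CPM in the K13A libraries, against 79.77 and 20.97 CPM in parental ones. Its groups overlapped, and parental library 1 stood far above all other libraries. Of 14 other homeobox genes, some of prostate or ParaHox kind, 7 were tested, with 0 called by these tools, 0 at an unadjusted p under 0.05 and a median of 0.21. ISL1 had a log2 fold change of 1.35 ± 0.77 (edgeR adjusted p = 0.564). It passed the filter only through the K13A libraries, with 22, 24 and 12 counts there against 16 and 3 counts in parental ones.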

How the data were processed

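RNA of 2 C4K13A, 1 C5K13A and 2 parental C4-2B libraries was sequenced. Per the labels' protocols, column-purified total RNA was cleared of DNA with DNase I, depleted by the RiboErase method and run on an Illumina HiSeq. The authors deposited whole-number counts per gene, not normalized; per the submitters' processing notes they used bcl2fastq, STAR 2.5 and featureCounts 1.4.6-p5 of Subread. The genome build, annotation and strand setting were not given in the sources used here.

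Symbols, exons and coordinates came by ID from GENCODE v29 (GRCh38), which held 55297 of the 58812 IDs; a second HOXC5 ID of another biotype was left out. In R 4.3.3, edgeR 4.0.16 was run on the whole table (filterByExpr, TMM factors, glmQLFit, glmQLFTest, Benjamini-Hochberg adjustment, threshold 0.05), with 2 groups for all K13A libraries against parental and 3 groups for single clones. The SE was obtained by dividing the fold change by the square root of F. CPM is the count scaled to a common library total with TMM factors, and RPKM divides it by kilobases of merged exons. Floors cover counting error only. Fits were tested on simulated data.

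The members and lists were chosen with earlier results of these data known. Values in every library are given for members with a mean of at least 1 CPM in a group; from each list, called genes or the 2 of smallest adjusted p are named, and exceptions are marked. Some genes that this rule names are not reported here, though counts, medians and sums include them. Alternatives used RLE and upper-quartile factors, other filters, DESeq2 1.42.0, limma-voom (limma 3.58.1), summed C4K13A libraries, a 3-group fit, removal of mitochondrial, ribosomal and small RNA genes, a covariate splitting libraries at 200 CPM of mitochondrial ribosomal RNA, a replicate block and each library left out in turn.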

Additional observations from a re-analysis of the deposited data

How the results depend on the processing

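The number of HOX members called was 0 in each comparison as reported. For all K13A libraries it was 2 with DESeq2 and 5 without a filter (HOXA10, HOXA11, HOXA13, HOXC10 and HOXD8), and 0 under the other alternatives, the 5 fits that left out a library among them. For C4K13A it was 2 with DESeq2, 5 without a filter, and 0 to 5 when a library was left out, with 5 without parental library 2 (7.59% of all genes in that fit) and 2 without C4K13A library 1 (1.37%). For C5K13A it was 1 with DESeq2, 3 without a filter, and 0 to 2 when a library was left out, with 2 when either C4K13A library was dropped singly (0.738% of all genes without library 1 and 0.699% without library 2) and 1 without parental library 2 (3.04%). For C5K13A against C4K13A it was 1 with DESeq2, 1 without a filter, and 0 to 1 when a library was left out, with 1 without parental library 1 (0.716%) and 1 without parental library 2 (0.628%). A replicate block over the 4 C4K13A and parental libraries called 4 members (HOXA10, HOXA11, HOXA13 and HOXB9) and 885 genes in all (4.35%), against 0 members and 130 genes without the block in the same 4 libraries. The labels do not say that the numbers mark shared batches, and same-numbered libraries deviated with a correlation of 0.196 over genes. The cause of these differences was not tested.

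The count of all called genes for K13A was 42, with a range from 0 without parental library 1 to 1167 without a filter, 555 with DESeq2 and 11 with limma-voom. For C4K13A it was 159, with a range of 86 to 1667, for C5K13A 11, with a range of 0 to 668, and for C5K13A against C4K13A 15, with a range of 0 to 423. The summed level of each cluster kept its direction with the length of the longest transcript, RLE factors, library totals and each library left out, the alternatives run for it.

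Some members that were not called changed sign. For all K13A libraries HOXB7 was at 0.018 in the 3-group fit and 0.019 with C4K13A summed. For C4K13A HOXA3 was at -0.020 with upper-quartile factors and at -0.0025 without a filter. With 1 library left out in turn, the K13A fold change ran for HOXB7 from -0.12 to 0.035, HOXA4 from -0.33 to 0.45, HOXA3 from -0.11 to 0.47 and HOXC4 from -1.49 to 0.78. In C4K13A it ran from -0.33 to 0.33 for HOXA3, -0.077 to 0.21 for HOXA6, -1.43 to 0.84 for HOXC4 and -0.73 to 0.14 for HOXD13. In C5K13A it ran from -0.39 to 0.72 for HOXC8 and -1.63 to 0.64 for HOXC4. Low counts limit HOXC10, HOXB8 and most of HOXD, and every test has 1 to 3 residual degrees of freedom.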
